A study of Mus musculus with 88 samples.

Results

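The genes described here encode the voltage-gated sodium and calcium channels. They are the protein-coding genes with a mouse symbol made of Scn, digits and a or b, or starting with Cacna1, Cacna2d, Cacnb or Cacng. The symbol rule found 40 of the 55487 genes in the count table: 10 Scn alpha, 4 Scn beta, 10 Cacna1, 4 Cacna2d, 4 Cacnb and 8 Cacng genes. Counts were high enough to test 39 of them. Scn4a, the skeletal muscle sodium channel, was at 0 in 35 of 87 libraries and was not tested.

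RNA came from the nucleus accumbens of C57BL/6 mice, taken 6 days after surgery. Every mouse had received herpes simplex vectors carrying a nuclease-dead Cas9 joined to CREB(S133D), a constitutively active CREB, and a guide RNA. The guide was g11, aimed at Fosb, or gNT, a control with no target. In the D1 arms the mice were D1-Cre and the virus needed Cre. In the D2 arms the mice were D2-Cre and the virus needed Cre. In the D1-D2 arms the mice were D1-Cre and the virus did not need Cre, so mice of all groups carried a Cre transgene and the active CREB construct. With the control guide there were 8 female D1, 8 female D2, 8 female D1-D2, 4 male D1, 8 male D2 and 7 male D1-D2 libraries. With the Fosb guide there were 6, 8, 12, 7, 7 and 4 in the same order. The tissue was whole dissected accumbens, so the RNA is not of vector-carrying cells alone, and in such bulk samples fewer cells of a type and less RNA per cell cannot be told apart. The labels do not say whether libraries of a group came from separate mice, so p-values measure the spread between libraries.

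A voltage-gated sodium channel is an Scn alpha subunit, which forms the pore, joined to Scn beta subunits, which adjust gating and anchor the channel. A voltage-gated calcium channel of most types is a Cacna1 pore with a Cacnb subunit inside the cell and a Cacna2d subunit outside it. The Cacng family holds muscle calcium channel subunits and the brain's AMPA receptor auxiliary proteins, which carry the channel name by descent. In the accumbens most neurons are medium spiny neurons, whose firing from a very negative resting state depends on these channels.

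Library totals ran from 12430387 to 69568367 counts, with a median of 31393804. In 4 Fosb guide libraries over 90% of counts lay in 10 genes (female D2 17907 and 18432, female D1-D2 19610, male D1-D2 18919), which left 1788 to 3123 counts for all 40 channel genes and between 5 and 9 of them at 0. The labels put 9 male D2 libraries in sequencing batch 2 and all 78 others in batch 1. Libraries 17376 (female D1, Fosb guide) and 19749 (female D1-D2, Fosb guide) held Y-linked Ddx3y at 37.0 and 30.9 CPM (a gene's counts scaled to the size of its library) besides Xist at 35.2 and 30.0 CPM. Ddx3y reached 7.20 CPM in the other 48 female libraries and was at least 51.3 CPM in the 37 male ones. Libraries 18722 (male D1, Fosb guide) and 18749 (male D1-D2, Fosb guide) were the most alike of all pairs outside those 4 libraries: their squared difference was 4.599 times the counting variance, against 21.2 for the next pair. Comparisons were repeated without each of these sets of libraries. Among markers of cell types, Drd1, Drd2 and the other medium spiny neuron genes summed to 950 to 6337 CPM, so medium spiny neuron transcripts were present in every library. The cortical glutamatergic list summed to 28.3 to 1067 CPM.

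Sodium channel beta subunits had the highest levels. All CPM are TMM-scaled, a correction for library composition, and levels are compared between genes as CPM per kb of exon, mean ± SD over 87 libraries. Scn4b, a beta subunit enriched in the striatum and linked to resurgent sodium current, was at 58.9 ± 24.2 and Scn2b, another beta subunit, at 56.1 ± 15.7. These means differ by less than the SD of either. Scn3b was at 12.4 ± 3.11. The 4 beta genes summed to 160.5 CPM per kb, against 49.1 for the 10 alpha genes.

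Scn2a, the pore of the axon initial segment and of unmyelinated axons, was the most abundant alpha gene at 26.0 ± 6.16 CPM per kb. It held 53.2 ± 3.20% of the alpha level, with a lowest library of 44.9% and a highest of 58.2%. Scn8a, the pore of nodes of Ranvier and initial segments, held 16.1%, Scn1a, a pore known from fast-spiking interneurons, 13.9%, and Scn3a, most abundant in the developing brain, 13.6%. The other 6 alpha genes were low. Scn9a, of sensory and sympathetic neurons, was at 0.473 and Scn7a, a sodium sensor outside the excitable family, at 0.212 CPM per kb. The sensory neuron pores Scn11a and Scn10a were at 0.0622 and 0.0295, and Scn4a at 0.00502 CPM per kb.

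Among calcium channel pores Cacna1e, the R-type pore, was highest at 8.37 ± 3.13 CPM per kb and held 23.3% of the Cacna1 level. Cacna1b (N-type) was at 6.88, Cacna1i (T-type) at 5.73, Cacna1a (P/Q-type) at 4.35 and Cacna1h (T-type) at 3.93 CPM per kb. The L-type pores Cacna1c and Cacna1d were at 3.37 and 1.85, and the T-type Cacna1g at 1.00. Cacna1s, the skeletal muscle L-type pore, was at 0.201 and Cacna1f, the retinal one, at 0.0343 CPM per kb. Of the 3 T-type pores Cacna1g was thus the lowest by mean level per length.

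Of the auxiliary calcium subunits Cacna2d3 held 52.4% of its family at 19.5 ± 6.14 CPM per kb and Cacna2d1, the gabapentin target, 29.9%. Cacna2d4, known from photoreceptors, was at 0.407 ± 0.809, an SD above its mean. Cacnb4 was the highest beta subunit at 19.3 ± 4.25 and Cacnb2 the lowest at 3.80 ± 1.97 CPM per kb. In the Cacng family the AMPA receptor auxiliary genes Cacng8, Cacng3 and Cacng7 lay close together at 10.3 ± 3.06, 9.99 ± 3.37 and 8.80 ± 2.54 CPM per kb. These 3 differ by less than their SD. Cacng6 and the muscle gene Cacng1 were at 0.221 and 0.243. The order depended on the length used: with the longest transcript in place of all exons Cacna2d3 moved from rank 5 to 3 and Cacnb2 from rank 24 to 14 of 40, while Scn4b and Scn2b stayed first.

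**Figure D1:**
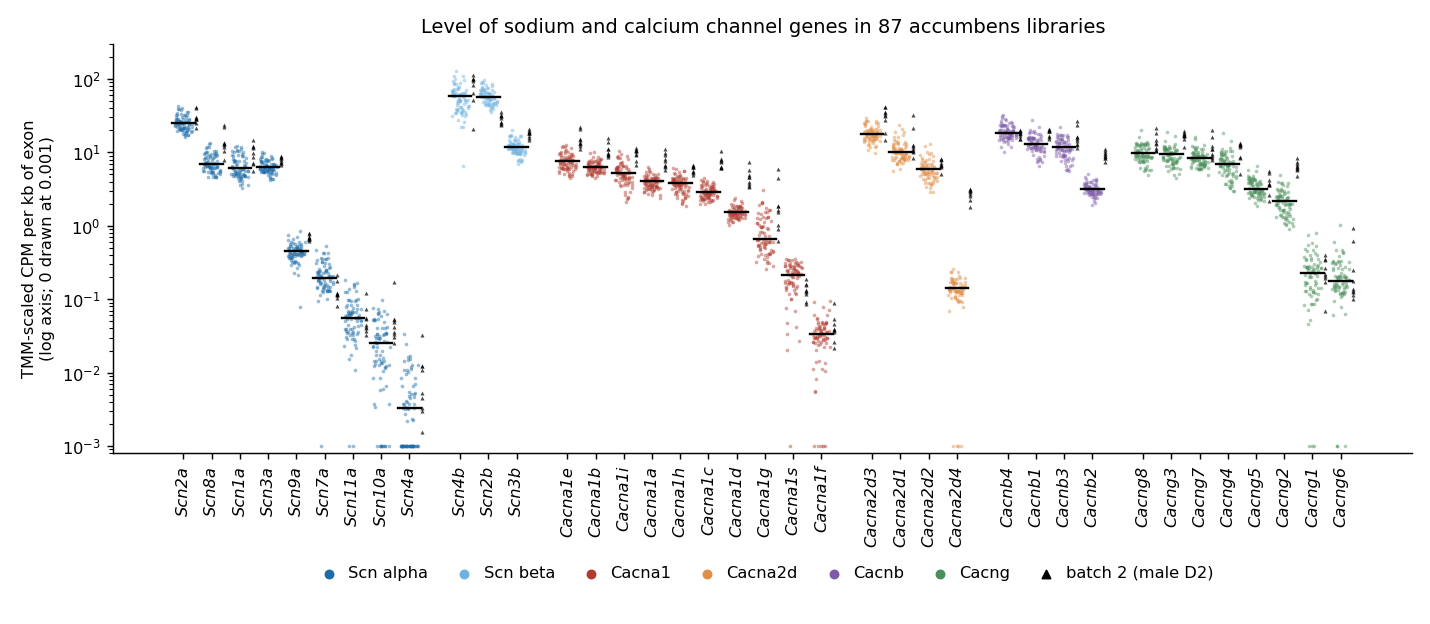
Level of channel genes in CPM per kb of exon on a log axis, in 87 libraries grouped by family; a point is a library, a bar the median, a triangle a batch 2 library, and 0 is drawn at the axis floor. Scn4b and Scn2b lie at the top with means of 58.9 and 56.1, Scn4a at the bottom, and the batch 2 triangles of Cacna2d4 and Cacnb2 sit apart above the other libraries.

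Levels of single genes varied across the 12 groups. Median Scn2a ran from 223 CPM in the male D1 controls to 389 CPM in the female D1-D2 controls, with single libraries from 209 to 554 CPM. Median Scn4b ran from 168 CPM in the male D1 controls to 439 CPM in the male D2 controls. Cacna1i was lowest in the male D1 controls (median 27.2 CPM) and highest in the male D2 controls (median 97.5 CPM). The male D1 controls, with 4 libraries, were the lowest group by median for Scn2a, Scn3a, Scn3b, Scn4b, Cacna1h and Cacna1i among others, and 6 of the 8 male D2 controls were batch 2 libraries.

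Within groups the SD of log2(CPM + 0.1) had a median of 0.43 over the 39 tested genes and 0.54 over all genes tested, and 27 of 39 lay below the latter. Without the 4 libraries with over 90% of counts in 10 genes these medians were 0.43 and 0.45, with 23 below. Of the 39, Scn3a had the lowest value at 0.26, and within group and batch Cacnb2 did at 0.23. Cacna2d4 varied most at 1.22, followed by Cacna1g at 0.89, Scn10a at 0.85, Cacna1s at 0.81 and, among others, Cacng6 at 0.73. Within group and batch the value for Cacna2d4 was 0.85. Scn10a, Cacna2d4, Cacng6 and Cacna1s were at 0 in 9, 4, 3 and 1 libraries.

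Many of these genes are neighbours in the genome (mm10, GENCODE M21 gene bounds). Scn2b (chr9:45117782-45130070, plus strand) and Scn4b (chr9:45138395-45154152, plus strand) are 8.32 kb apart. Scn3a and Scn2a on chromosome 2 are 53.1 kb apart on opposite strands, and Scn1a, Scn9a and Scn7a follow on the same chromosome with gaps of 39.2 and 38.5 kb. Scn10a and Scn11a lie side by side on chromosome 9, Cacng7, Cacng8 and Cacng6 on chromosome 7, and Cacng1, Cacng4 and Cacng5 on chromosome 11. As an example of levels among neighbours, Cacng8 was at 10.3 CPM per kb and Cacng6, 8.55 kb away, at 0.221. Exons of Cacna1s overlap an antisense gene over 20% of their length and those of Cacnb4 a gene on the other strand over 16%. The labels and processing notes do not say whether counting used strand, so these levels are uncertain.

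The vectors bring CREB activity, and the Fosb product is a subunit of AP-1, so promoters were searched for the letters both factors are known to bind. The search covered 250 bases before each start in the RefSeq table for GRCm38.p6, on both strands. It matched 30 of the 40 genes with 41 starts, and the table has 32851 starts in all. AP-1 (TGAGTCA, or TGACTCA on the other strand) was found at 1 of the 41 starts, in Cacng5, and in 4.46% of all starts. The full CRE (TGACGTCA) was found at 0 of the 41 starts and in 1.55% of all starts. The CRE core (TGACG or CGTCA) was found at 6 of the 41 starts, in Cacna1b, Cacna1c, Cacna1i, Cacna2d1, Cacnb2 and Scn10a, and in 17.8% of all starts. A full CRE holds the core, so those motifs overlap. A match is a description of letters and not a bound site. The window of Cacng5 is shown as the only one of these with the AP-1 letters. Those of Cacna1i and Cacnb2 are shown because their values are described below. The motif is in capitals. Cacng5 is at chr11:107915056-107915305 (minus strand, motif from base -214), Cacna1i at chr15:80286988-80287237 (plus strand, from base -72) and Cacnb2 at chr2:14823842-14824091 (plus strand, from base -117, before an internal start), counted back from the start and printed 5′ to 3′.
Cacng5: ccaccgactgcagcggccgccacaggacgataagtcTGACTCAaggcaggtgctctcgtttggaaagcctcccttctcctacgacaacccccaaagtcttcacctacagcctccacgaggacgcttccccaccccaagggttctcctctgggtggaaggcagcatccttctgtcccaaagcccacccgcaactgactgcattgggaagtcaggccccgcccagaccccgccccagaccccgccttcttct
Cacna1i: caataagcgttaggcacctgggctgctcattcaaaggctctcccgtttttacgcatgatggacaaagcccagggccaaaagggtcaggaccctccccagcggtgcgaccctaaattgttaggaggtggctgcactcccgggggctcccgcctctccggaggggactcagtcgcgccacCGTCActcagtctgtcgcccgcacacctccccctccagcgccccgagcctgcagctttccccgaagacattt
Cacnb2: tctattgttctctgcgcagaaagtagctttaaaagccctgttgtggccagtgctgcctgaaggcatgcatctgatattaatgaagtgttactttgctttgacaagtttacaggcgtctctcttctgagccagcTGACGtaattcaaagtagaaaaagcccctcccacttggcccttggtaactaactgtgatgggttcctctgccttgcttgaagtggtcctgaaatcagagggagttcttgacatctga

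The Fosb guide against the control guide was the study's central contrast. It asks what a targeted activation of Fosb does in cells of D1-Cre or D2-Cre mice that express Cre. In the D1-D2 arms the virus did not need Cre, so the activation was not limited to such cells. Fosb itself did not pass the test in any arm. Its median in the female D1 arm was 7.16 CPM with the control guide and 9.81 CPM with the Fosb guide, and the ranges of 4.63 to 9.64 and 6.41 to 12.2 CPM overlap. The log2 fold change of Fosb (edgeR, Fosb guide over control guide) was 0.41 ± 0.23 (SE) for the D1 arm of females and 0.48 ± 0.28 for that of males. For the D2 arm it was -0.37 ± 0.23 and -0.30 ± 0.25, and for the D1-D2 arm 0.08 ± 0.20 and 0.60 ± 0.27, females first. The last had an unadjusted p of 0.0315 and an adjusted p of 1, so a higher level of the intended target was not detectable in whole tissue in these libraries. Between the female Fosb guide libraries of the D1 and D2 arms Fosb differed by 0.70 ± 0.24 (edgeR unadjusted p = 0.00547, adjusted p = 0.967).

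No channel gene passed an adjusted p of 0.05 between guides in any of the 6 arms (edgeR quasi-likelihood test, Benjamini-Hochberg over 25420 genes). The share of all genes that passed was 0.00393% and 0% in the D1 arm, 0% and 0.0629% in the D2 arm, and 0% and 0.00393% in the D1-D2 arm (females, then males), so the 0 of 39 matches a background near 0. At an unadjusted p under 0.05 the counts in that order were 2, 5, 0, 0, 1 and 0 of 39, beside 4.48%, 7.11%, 1.66%, 2.18%, 3.4% and 3.22% of all genes. DESeq2 called 0 in each arm. Weighted limma-voom called 0 in 5 arms and 1 gene, Cacna1h, in the male D1 arm. The mean of the 6 effects gave 0 calls among the channel genes (0% of all genes) and 0 at an unadjusted p under 0.05 (9.52% of all genes), with Cacna2d2 at 0.14 ± 0.08, Cacna1s at 0.21 ± 0.16 and Cacna2d1 at -0.12 ± 0.10 (log2 fold change ± SE) as the 3 smallest p-values, and 22 of 39 above 0 (50.7% of all genes). The median SE of a channel gene was 0.17 to 0.24 per arm on the log2 scale, so shifts of that size could not be seen. Larger shifts of several SE could also be missed after adjustment over all genes.

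In the female D1 arm the channel genes gathered around 0, with 21 of 39 above it (50.8% of all genes) and a median log2 fold change of 0.05. Scn9a had the smallest p: 4.67, 5.58 and 9.46 CPM (lowest, median, highest of 8) with the control guide and 2.87, 4.72 and 5.93 CPM (of 6) with the Fosb guide. The groups overlap, and the change was -0.42 ± 0.19 (edgeR unadjusted p = 0.0308, adjusted p = 1). The L-type pore Cacna1d went from 12.9, 18.2 and 20.5 to 15.9, 20.5 and 28.4 CPM, a change of 0.28 ± 0.14 (edgeR unadjusted p = 0.0431, adjusted p = 1). The R-type pore Cacna1e went from 133, 183 and 250 to 177, 226 and 295 CPM, a change of 0.31 ± 0.18 (edgeR unadjusted p = 0.0911). Beside these, 8 of 9 cortical glutamatergic markers were above 0 with a median of 2.10, and their sum was 37.6 to 267 CPM with the control guide and 83.0 to 727 CPM with the Fosb guide. Their part in the values was not tested.

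The male D1 arm held the most channel genes with a small unadjusted p. There 29 of 39 were above 0 (54.0% of all genes), with a median of 0.16. Cacna1h, a T-type pore, was at 21.95, 20.2, 19.2 and 28.4 CPM in the 4 controls and at 23.2, 33.0 and 44.3 CPM (lowest, median, highest of 7) with the Fosb guide. The ranges overlap through the control library 18383, and the change was 0.52 ± 0.20 (edgeR unadjusted p = 0.00953, adjusted p = 0.686). With limma-voom it was 0.66 with an adjusted p of 0.0249, in a fit that called 747 of 25420 genes where edgeR and DESeq2 called 0.

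Scn11a was at 0.251, 0.169, 0.143 and 0.0643 CPM in the male D1 controls and at 0.198, 0.327 and 0.599 CPM with the Fosb guide, a change of 1.07 ± 0.51 (edgeR unadjusted p = 0.0401). Cacna2d2, an extracellular calcium channel subunit, was at 30.5, 22.7, 26.0 and 28.7 CPM in controls and 23.2, 36.6 and 50.6 CPM with the Fosb guide, a change of 0.49 ± 0.24 (edgeR unadjusted p = 0.0414). Both pairs of groups overlap. Cacnb1 (0.42 ± 0.21) and Cacng4 (0.59 ± 0.29) were the others under an unadjusted p of 0.05. Beside these, 11 of 12 medium spiny neuron markers were above 0 in the male D1 arm with a median of 0.38 and none passed. Their sum was 2103 to 2730 CPM in the 4 controls and 1837 to 3833 CPM with the Fosb guide, and its part was not tested.

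In the D2 arms most channel genes lay below 0, and none was called. In female D2 libraries 12 of 39 were above 0 (median -0.11; 43.1% of all genes above 0), and the smallest p-values belonged to Cacna2d2 at 0.33 ± 0.19, Scn7a at 0.47 ± 0.28 and Cacna1i at -0.32 ± 0.19 (log2 fold change ± SE). Cacna1i ran from 44.9 to 73.8 CPM with the control guide and from 35.9 to 51.3 CPM with the Fosb guide. In male D2 libraries 16 of 39 were above 0 (median -0.04; 52.7% of all genes), led by Cacna1c at -0.28 ± 0.15, Cacna2d3 at -0.31 ± 0.18 and Cacng1 at 0.68 ± 0.40. All of these groups overlap. Cortical glutamatergic markers were above 0 in 0 of 9 in females (median -1.12) and 2 of 9 in males (median -0.76), and medium spiny neuron markers in 0 of 12 (median -0.22) and 2 of 12 (median -0.10). Astrocyte markers were above 0 in 5 of 5 in males (median 0.48). None of these markers passed, and their part was not tested. The male D2 arm mixes both sequencing batches, and the fit held a batch term.

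In the D1-D2 arms, where the virus did not need Cre, 11 of 39 channel genes were above 0 in females (median -0.07; 49.0% of all genes) and 20 of 39 in males (median 0.02; 45.4% of all genes). Cacna2d3 ran at 128, 179 and 257 CPM (lowest, median, highest of 8) in female controls and at 94.2, 155 and 233 CPM (of 12) with the Fosb guide, a change of -0.32 ± 0.15 (edgeR unadjusted p = 0.0388, adjusted p = 1). The alpha genes Scn3a and Scn2a followed at -0.22 ± 0.11 and -0.26 ± 0.14. In male D1-D2 libraries Cacnb2 was at 27.3, 42.3 and 58.2 CPM (of 7) in controls and at 48.6, 38.7, 53.5 and 54.9 CPM with the Fosb guide (0.25 ± 0.14, edgeR unadjusted p = 0.0800). Cacng6 (-0.90 ± 0.57) and Cacna2d4 (-0.31 ± 0.25) came next, and both were at 0 in library 18919. Medium spiny neuron markers were above 0 in 0 of 12 in the female arm (median -0.19) and in 12 of 12 in the male arm (median 0.20), cortical ones in 2 of 9 in each (medians -0.16 and -1.51), and none passed.

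**Figure D2:**
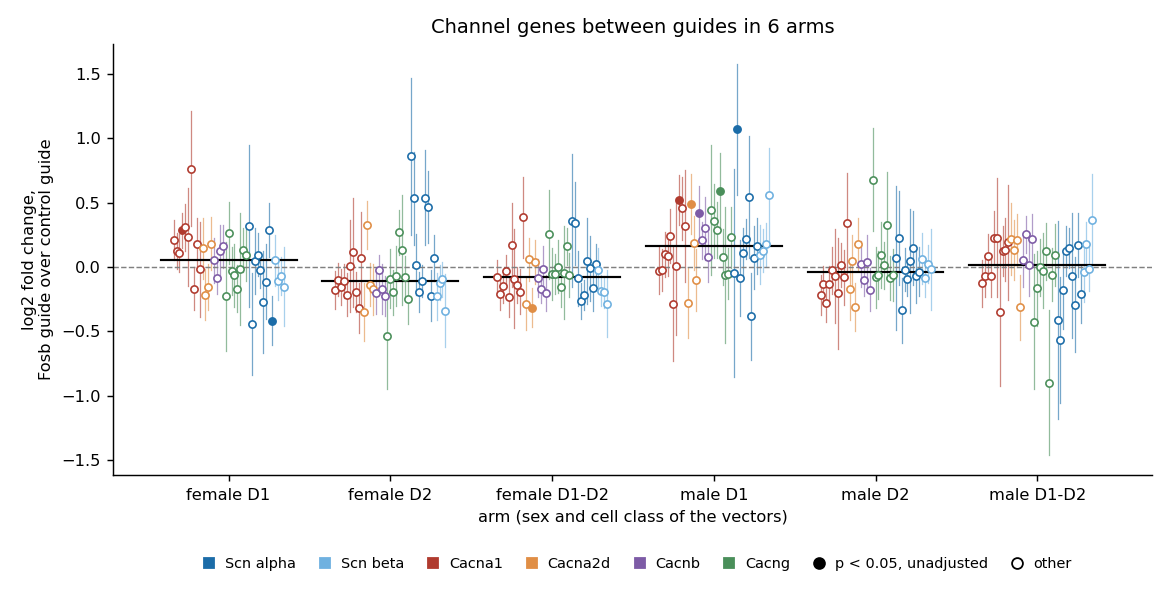
Log2 fold change of the 39 tested channel genes, Fosb guide over control guide, in each of 6 arms (edgeR); bars are ± 1 SE, colours give the family, filled points have an unadjusted p under 0.05 and black lines mark the median of the 39. Points scatter around 0 with medians between -0.11 and 0.16, and the male D1 arm has 5 filled points.

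The difference of the guide effects between D1 and D2 arms was tested directly. In females 0 of 39 channel genes passed (edgeR, 0.00393% of all genes) and 2 had an unadjusted p under 0.05 (3.58% of all genes): Cacna1e at 0.52 ± 0.25 and Cacna1d at 0.39 ± 0.19 (D1 effect minus D2 effect). Cacna2d2 followed at -0.54 ± 0.27, and 28 of 39 were above 0 (54.9% of all genes). In the same contrast 9 of 9 cortical glutamatergic markers were above 0 (median 3.25, none passed), and their part was not tested. In males 0 of 39 passed (0% of all genes) and 0 had an unadjusted p under 0.05 (1.84% of all genes), led by Cacna1h at 0.51 ± 0.26, Cacna2d3 at 0.50 ± 0.28 and Cacna1i at 0.54 ± 0.32, and 31 of 39 were above 0 (52.0% of all genes), as were 12 of 12 medium spiny neuron markers (median 0.43, none passed). DESeq2 and limma-voom called 0 in both. The difference of the D1 arm effect between females and males was also tested (an added comparison). None of 39 passed by edgeR, DESeq2 or limma-voom (0.00393% of all genes by edgeR), 4 had an unadjusted p under 0.05 (3.73% of all genes), and Cacna1h was first at -0.69 ± 0.26 (edgeR unadjusted p = 0.00881, adjusted p = 0.987).

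No difference between the arms was detected in these genes at the spread of these libraries. Between D1 and D2 arms, 0 of 39 passed with the control guide in females (edgeR, 0.0197% of all genes, 0.0118% higher in D1) and in males (0%), with the Fosb guide in females (0.00393%) and in males (0.00393%), and in the mean of these 4 comparisons (0.00787%). At an unadjusted p under 0.05 the counts were 0, 0, 3, 0 and 0, beside 3.91%, 2.38%, 4.98%, 0.803% and 1.61% of all genes. Above 0 were 25, 9, 30, 31 and 27 of 39, beside 47.6%, 51.3%, 52.1%, 58.2% and 54.7% of all genes. DESeq2 and limma-voom called 0 in each. Cacna1i gave the smallest p: in female libraries with the Fosb guide it ran at 41.4, 62.8 and 94.2 CPM (lowest, median, highest) in the D1 arm and at 35.9, 44.9 and 51.3 CPM in the D2 arm. The groups overlap and the difference was 0.53 ± 0.21 (edgeR unadjusted p = 0.0131, adjusted p = 0.980). In this comparison 9 of 9 cortical glutamatergic markers (median 2.01) and 11 of 12 medium spiny neuron markers (median 0.21) were above 0, none passed, and their part was not tested. In the female control libraries of the same arms Cacna1i ran from 40.9 to 86.0 CPM and from 44.9 to 73.8 CPM.

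The other members near the top of these lists were of all families. With the control guide they were Cacnb2 (0.21 ± 0.11), Cacna1d (-0.24 ± 0.13) and Cacng5 (0.23 ± 0.17) in females and Scn3a (-0.34 ± 0.18), Cacna2d3 (-0.41 ± 0.25) and Cacna2d2 (-0.44 ± 0.28) in males, where 0 of 12 medium spiny neuron markers were above 0 (median -0.32, none passed). With the Fosb guide they were Cacnb4 (0.36 ± 0.17) and Scn11a (-0.86 ± 0.40) in females and Cacna1h (0.25 ± 0.18), Cacna1a (0.24 ± 0.17) and Cacna1f (-0.49 ± 0.40) in males. In the mean they were Scn11a (-0.39 ± 0.24), Cacna1a (0.13 ± 0.09) and Cacna2d2 (-0.14 ± 0.12). Without the batch term in the fit, 26 channel genes were called lower and 1 higher in male D1 than D2 controls (26.9% and 22.7% of all genes), 4 lower and 0 higher with the Fosb guide (10.6% and 0.913%), and 16 lower and 1 higher in the mean (19.3% and 15.9%). Batch 2 libraries are in the male D2 arm alone.

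With sequencing batch in the fit, control guide libraries of females were higher than those of males in 17 of 39 channel genes and lower in 0 (edgeR, mean over the 3 arms, beside 15.3% of all genes higher and 13.2% lower). In the D2 arm 6 of the 8 male controls were batch 2 libraries. Without the batch term the 39 genes had a median of -0.37 in that arm, so measured levels there were mostly lower in females. Both kinds of sodium channel subunit were among the calls: the beta genes Scn4b (0.66 ± 0.20), Scn2b (0.39 ± 0.09) and Scn3b (0.37 ± 0.09), and the alpha genes Scn2a (0.28 ± 0.11) and Scn3a (0.28 ± 0.09). Of the calcium pores only the T-type Cacna1i (0.59 ± 0.14, adjusted p = 9.74e-04) and Cacna1h (0.56 ± 0.11, adjusted p = 1.75e-04) passed in edgeR. Cacna2d2 (0.43 ± 0.13), Cacnb1 (0.48 ± 0.12), Cacnb3 (0.45 ± 0.13), Cacnb2 (0.25 ± 0.08) and 5 of 8 Cacng genes were also higher: Cacng4 (0.58 ± 0.16), Cacng2 (0.49 ± 0.15), Cacng5 (0.43 ± 0.12), Cacng3 (0.34 ± 0.12) and Cacng8 (0.33 ± 0.13). All values are log2 fold changes, female over male, ± SE.

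The called genes had a median of 0.43 in the mean over arms, and the 39 tested genes 0.28 against 0.00 for all genes tested, with 33 of 39 and 50.2% of all genes above 0. The 17 were chosen on these control libraries, so their values by control arm are a description. By arm they had medians of 0.59 (17 above 0) in D1, 0.41 (17 above 0) in D2 and 0.21 (16 above 0) in D1-D2 controls, beside 48.4%, 55.2% and 44.6% of all genes above 0. With the Fosb guide, in other libraries, they had medians of 0.34 (17 above 0) in D1, 0.26 (17 above 0) in D2 and 0.01 (9 above 0) in D1-D2 arms, beside 47.3%, 49.8% and 52.8% of all genes. The like background for these 17 would be all genes called higher in the control libraries. Their share above 0 with the Fosb guide was not computed, so nothing particular to channel genes can be read from these counts. The batch term was estimated from male D2 libraries of both guides together, so the D2 values are not independent of the control libraries. Without that term the 39 tested genes had a median of -0.26 in the D2 arm with the Fosb guide. None of the 39 passed with the Fosb guide in the D1 arm (edgeR, 0.767% of all genes; 10 at an unadjusted p under 0.05, beside 21.8% of all genes; DESeq2 2, Cacna1i and Cacng2; limma-voom 8), in the D2 arm (0.0629%; 4, beside 7.86%) or in the D1-D2 arm (0.0708%; 1, beside 2.36%). DESeq2 and limma-voom called 0 in the last pair of arms.

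In the D1 arm alone 14 of 39 channel genes were higher in female controls and 0 lower (edgeR, 12.6% of all genes higher and 9.71% lower), and all 14 were among the 17. The mean over arms includes these same D1 libraries, so that overlap is partly built in. Cacna2d2 was at 30.5, 22.7, 26.0 and 28.7 CPM in the 4 males and at 38.3, 49.2 and 72.5 CPM (lowest, median, highest of 8) in females (0.99 ± 0.24). Cacng4, an AMPA receptor auxiliary gene, was at 14.4, 12.4, 11.8 and 11.7 CPM in males and 19.5, 27.6 and 35.97 CPM in females (1.11 ± 0.29). Neither pair of groups overlaps.

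Cacna1h was at 21.95, 20.2, 19.2 and 28.4 CPM in the male D1 controls and at 31.0, 39.9 and 59.4 CPM in the female ones (0.88 ± 0.20). Scn2b was at 175, 215, 199 and 242 CPM in males and 277, 294 and 407 CPM in females (0.59 ± 0.17). These did not overlap either, and with Cacng3 they made 5 of 39 channel genes whose female D1 controls all lay above the male ones, beside 6.59% of all genes. Cacna1i (0.95 ± 0.25) and Scn4b (0.98 ± 0.36) passed with overlapping groups. In the D2 and D1-D2 controls 0 of 39 passed (edgeR, 0.0551% and 0.0629% of all genes; 3 and 5 at an unadjusted p under 0.05, beside 10.8% and 7.04% of all genes; 0 by DESeq2 and limma-voom). The difference between the D1 and D1-D2 arms in this contrast gave 0 calls in edgeR (0% of all genes, 7 at an unadjusted p under 0.05, beside 13.6% of all genes), 0 in DESeq2 and 8 in limma-voom, with Cacna2d2 first at 1.03 ± 0.30 (edgeR unadjusted p = 0.001, adjusted p = 0.238).

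**Figure D3:**
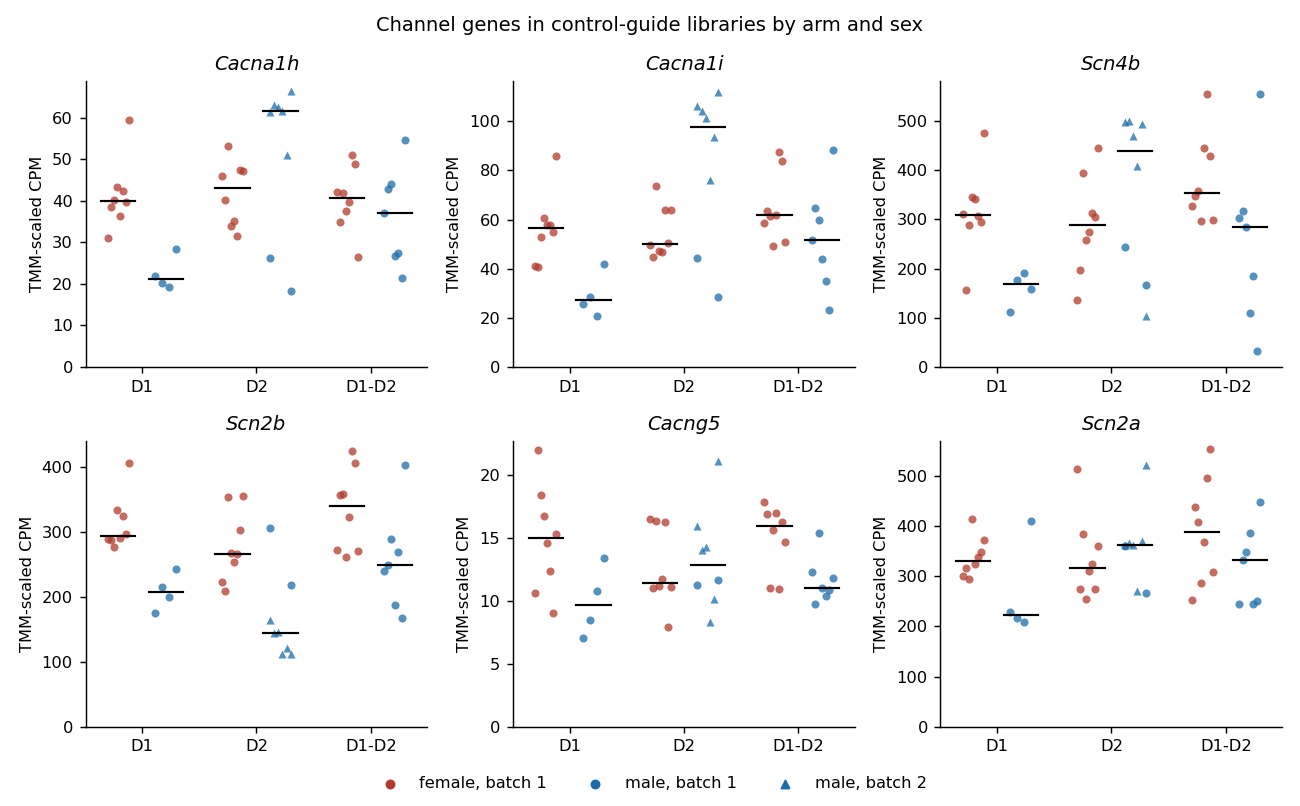
CPM of 6 channel genes in control guide libraries by arm and sex; circles are batch 1 libraries, triangles male libraries of batch 2, and bars are medians. In the D1 arm the 4 male libraries of Cacna1h and Scn2b lie below all 8 female ones, and in the D2 arm the batch 2 triangles of Cacna1h have a median of 62.0 CPM, against 43.1 CPM in females.

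The number of calls in the D1 arm depended on its 4 male control libraries. Leaving out 1 of them at a time gave 15 to 18 calls in the mean over arms and 8 to 15 in the D1 arm (9 without 17789, 8 without 18068, 9 without 18069, 15 without 18383), and leaving out 18068 and 18069 together gave 0 there and 13 in the mean over arms. With those libraries out the D1 arm log2 fold changes were 1.09 for Cacng4, 0.88 for Cacna2d2, 0.74 for Cacna1h (edgeR adjusted p = 0.0537) and 1.25 for Scn4b. These genes, picked from the 14 called with all libraries, kept their direction. The cause of the lost calls was not tested. Without the batch term the mean gave 2 higher and 3 lower (10.4% and 11.9% of all genes), and with batch 1 libraries alone 14 higher and 0 lower. DESeq2 called 15 and limma-voom 17 higher, with Cacna1f lower, in the mean. DESeq2's size factors in edgeR gave 12 higher and 0 lower: among all genes they moved the share of calls that were higher from 53.7% to 35.5% and, in the D1 arm, the median by -0.12, while the channel genes it called were all higher.

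Other lists moved in the same contrast. Of the medium spiny neuron markers 12 of 12 were above 0 in the mean over arms (4 passed, median 0.38), and 3 of 3 oligodendrocyte precursor and 3 of 9 interneuron markers passed as higher. In D1 controls the precursor markers summed to 45.6 to 68.7 CPM in males and 74.96 to 142 CPM in females, and the medium spiny neuron markers to 2103 to 2730 and 2066 to 4946 CPM. Genes called higher in females also had longer exons (median 5020 bases) than those called lower (2398) or all tested (2999), and the 40 channel genes have a median of 8343 bases. The part of these differences in the channel gene values was not tested.

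More channel genes passed between sequencing batches than in any other comparison tested here. In male D2 tissue 29 of 39 channel genes were higher in batch 2 than in batch 1 and 1 lower (edgeR batch term, an added comparison, beside 32.6% of all genes higher and 29.7% lower). The median was 0.82 for the channel genes and 0.01 for all genes tested. Both guides occur in both batches, in 9 batch 2 and 6 batch 1 libraries.

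Cacna2d4, a photoreceptor calcium channel subunit, was at 16.9, 27.6 and 30.1 CPM (lowest, median, highest) in batch 2 and at 0.737, 1.44 and 1.82 CPM in male D2 batch 1 libraries. No other batch 1 library passed 2.42 CPM, and the log2 difference was 4.29 ± 0.24 (edgeR adjusted p = 1.28e-27). Cacnb2 was at 97.7, 119 and 146 CPM in batch 2 and at 35.4, 37.8 and 39.97 CPM in batch 1 (1.66 ± 0.13). Its highest value in any batch 1 library was 67.0 CPM. Cacna1d ran from 42.7 to 93.7 CPM in batch 2 and from 15.95 to 25.8 CPM in batch 1 (1.54 ± 0.15), and Cacng2 from 26.4 to 46.7 and from 5.55 to 11.03 CPM (2.13 ± 0.26). All of these groups are separate.

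Scn2b went the other way: it was at 111, 137 and 164 CPM in batch 2 and at 205, 224 and 307 CPM in male D2 batch 1 libraries (-0.84 ± 0.15). In share of the Scn beta level Scn2b held 15.1 to 17.7% in batch 2 libraries and 28.9 to 51.9% in batch 1 libraries, so the balance of beta subunits differed between batches. The pores Cacna1g (1.93 ± 0.47), Cacna1i (1.32 ± 0.22), Cacna1c (1.28 ± 0.16), Scn8a (1.22 ± 0.22), Cacna1e (1.16 ± 0.19), Cacna1a (1.13 ± 0.16) and Cacna1h (1.11 ± 0.18) were also higher in batch 2. In male D2 tissue the batches did not overlap in 15 genes that were higher (20.7% of all genes) and 1 that was lower (18.0%). Against all 78 batch 1 libraries, 4 genes lay wholly higher (Cacnb2, Cacna1c, Cacna2d4 and Cacna1d, beside 8.45% of all genes) and Scn2b wholly lower (5.1%).

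**Figure D4:**
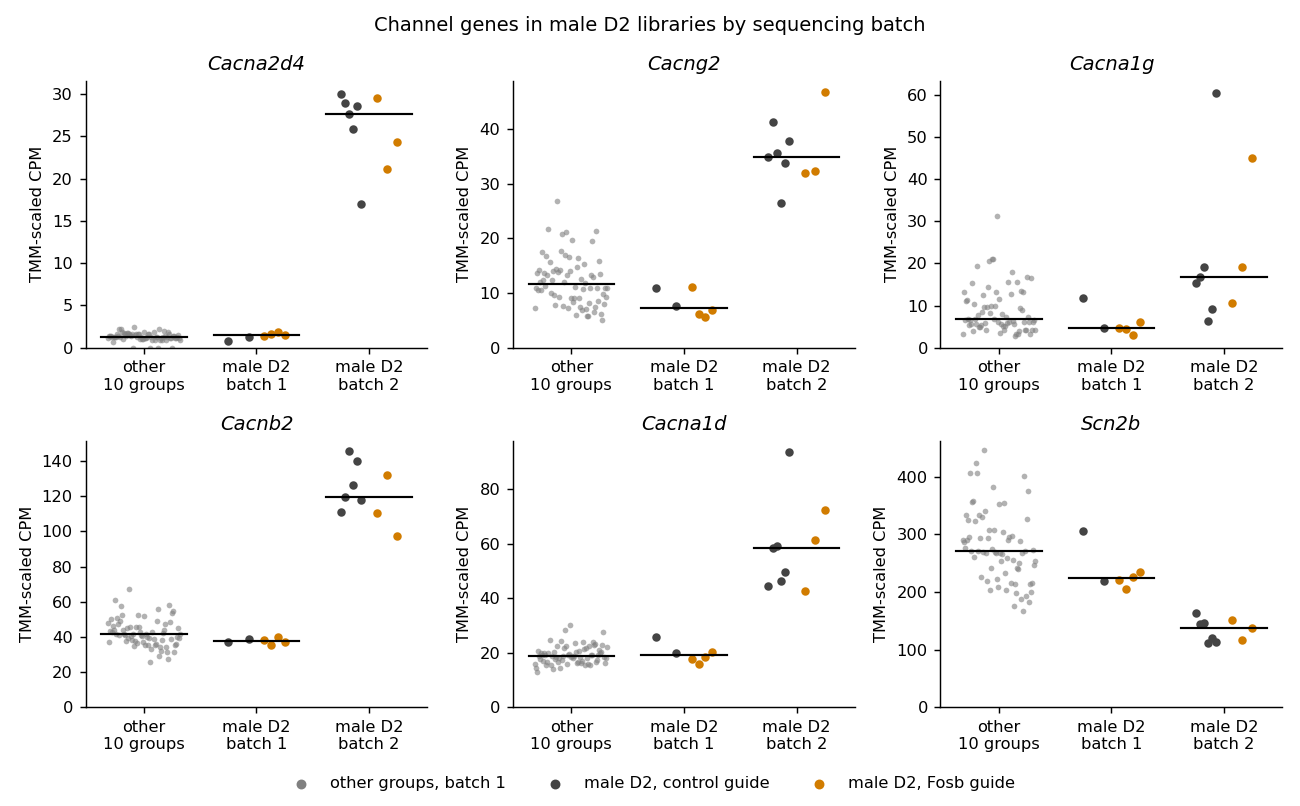
CPM of 6 channel genes in the 72 libraries of the other 10 groups and in male D2 libraries of batch 1 and batch 2, coloured by guide; bars are medians. For Cacna2d4 the 9 batch 2 libraries lie between 16.9 and 30.1 CPM and the rest at or below 2.42, and for Scn2b the 9 lie below all others.

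Markers differed between the batches too: 6 of 9 cortical glutamatergic and 5 of 9 interneuron markers were higher in batch 2 (medians 2.27 and 1.10), 4 of 4 erythrocyte and 3 of 5 astrocyte markers were lower (medians -3.35 and -0.59), and of 12 medium spiny neuron markers 5 were higher and 4 lower. Without libraries 3631, 3632, 17906 and 19511, which stand out in these markers, 25 channel genes were higher and 2 lower in batch 2. Genes called higher in batch 2 also had longer exons (median 3983 bases) than those called lower (2205) or all tested (2999). The 40 channel genes have a median of 8343 bases. The part of markers and exon length in the channel gene values was not tested. The labels do not say what differed between the batches, and batch cannot be told apart from anything else that differed between these sets of libraries.

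Single libraries stood apart in a few genes, together with markers. Cacna1g was highest in libraries 3631 (male D2 control, 60.5 CPM), 3632 (male D2, Fosb guide, 45.1 CPM) and 17906 (female D2 control, 31.3 CPM), against a median of 6.80 CPM. The same libraries had the highest sums of cortical glutamatergic markers, 1067, 944 and 798 CPM, against a median of 67.7 CPM. Scn4b was lowest in library 19511 (male D1-D2 control), at 32.2 CPM, where medium spiny neuron markers summed to 950 CPM, the lowest of all. It was highest in library 19596 (female D1-D2, Fosb guide), at 636 CPM, where they summed to 6337 CPM, the highest of all. These are descriptions of shared libraries, and the part of tissue makeup was not tested.

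**Figure D5:**
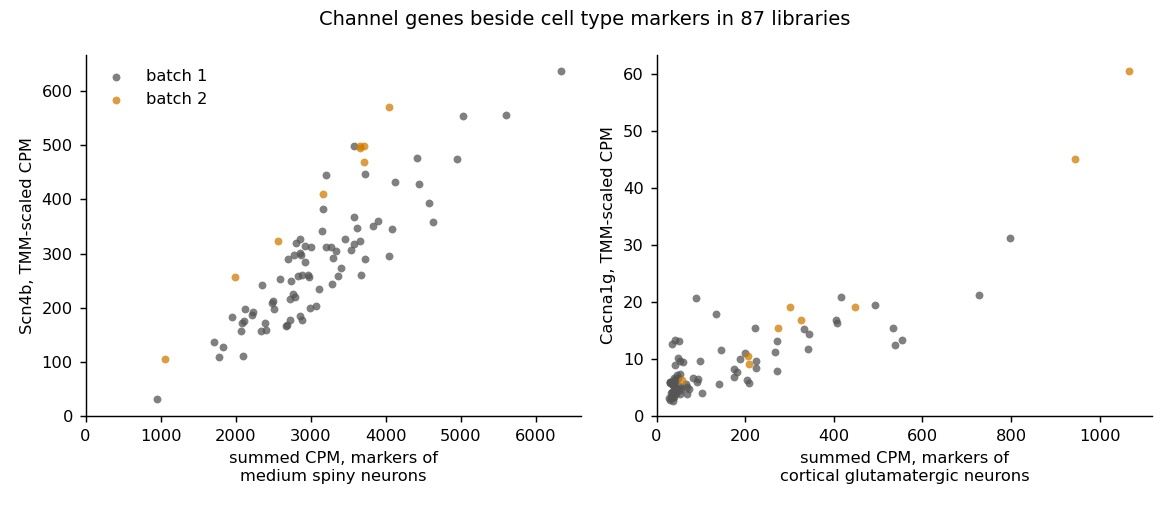
CPM of Scn4b against the summed CPM of 12 medium spiny neuron markers (left) and of Cacna1g against 9 cortical glutamatergic markers (right) in 87 libraries, coloured by sequencing batch; all axes are linear and a point is a library. Scn4b runs from 32.2 CPM at a sum of 950 to 636 CPM at a sum of 6337, and Cacna1g reaches 60.5 CPM at a sum of 1067.

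Genes whose products bind, anchor or resemble these channels were counted in the same fits. The list of 37 partners, chosen with results of these data known, holds ankyrins and spectrins, Fgf11 to Fgf14, calmodulins, CaM kinases, Gem and Rem proteins, presynaptic scaffolds and the sodium leak channel Nalcn with its subunits. All 37 were tested, and 0 passed in edgeR in any guide comparison or between D1 and D2 arms. At an unadjusted p under 0.05 there were 2 in the female D1, 4 in the male D1 and 0 in each other arm between guides. The shares of all genes in those comparisons are given above. Between female and male controls 13 were higher and 2 lower, the presynaptic scaffolds Rims1 and Rims2 (15.3% of all genes higher and 13.2% lower). Between batches 23 were higher and 9 lower (32.6% and 29.7% of all genes).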

How the data were processed

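RNA from the nucleus accumbens was sequenced as ribosomal RNA-depleted, stranded libraries. The authors deposited raw counts per gene; HISAT2, featureCounts of the Subread package, SAMtools, Trim Galore, DESeq2 1.27 and the build mm10 are listed in the submitters' processing notes. The annotation and the strand setting were not given in the sources used here. Of 88 labelled libraries 87 had a column and were used; 1 label without a column and 1 column without a label were not analysed here.

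From these counts, edgeR 4.0.16 (R 4.3.3) fitted 1 quasi-likelihood model to all 87 libraries, with a term per group and sequencing batch, TMM scaling and filterByExpr, which kept 25420 genes. Calls had a Benjamini-Hochberg adjusted p under 0.05 over all of them. There were 15 planned comparisons, and 9 were added after the data were seen. SE is the log2 fold change divided by the square root of F. Levels per kb used the union of exons in GENCODE M21. The spread between libraries used log2(CPM + 0.1). The tests were checked on simulated counts. These had the same dispersion for every gene and no batch shift, so the check does not cover those features of the data. The members and lists were chosen with earlier results of these data known. Genes were named by rule: the highest and lowest level of each family, every gene that passed, the 3 smallest p-values in each comparison, the 6 largest spreads, and genes whose call an alternative changed; others named were chosen after their values were seen. Some genes the rule names are not reported here.

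Alternatives were DESeq2 1.42.0 (adjusted p left as NA where it gives none), limma 3.58.1 voom with quality weights, DESeq2 size factors, no filter, no batch term, batch 1 alone, only the groups compared, and leaving out libraries. Depth limits low genes such as Scn4a. Cell counts and protein were not measured.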

Additional observations from a re-analysis of the deposited data

Results flagged for a closer look

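The values of 11 channel genes and Fosb were examined in every group of 4 to 10 libraries, 132 sets of values in all. In 23 sets, from 13 libraries, 1 library lay farther from its group than Dixon's test allows at its 95% level. For independent, normally distributed values that level is exceeded in about 5% of sets. That rate is no yardstick here: the genes include those of the largest spread, and CPM need not be normally distributed. The same libraries also recur across genes, and the male D2 groups hold both sequencing batches. The explanations were not tested.

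Library 18383, a male D1 control, was the highest of 4 in Scn2a (411 CPM, next 228), Cacna1e (223 CPM, next 132), Cacng8 (29.5 CPM, next 14.6) and Cacng6 (0.835 CPM, next 0.323), and its cortical glutamatergic markers summed to 533 CPM. In the same group library 17789 was highest in Cacna2d4 at 2.22 CPM. Library 3631, a male D2 control of batch 2, was the highest of 8 in Scn2a (522 CPM), Cacna1g (60.5 CPM) and Cacng6 (1.84 CPM). Library 3632, a male D2 Fosb guide library of batch 2, was the highest of 7 in Cacna1g (45.1 CPM), Scn10a (1.36 CPM) and Cacng6 (1.22 CPM). Library 17906, a female D2 control, was the highest of 8 in Cacng8 (47.7 CPM), Cacna1g (31.3 CPM) and Scn10a (0.537 CPM).

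Scn4b reached 570 CPM in library 3128 (male D2, Fosb guide, batch 2), where the next library had 324 CPM. This group holds both batches. Over both guides Scn4b in male D2 libraries was at 105, 469 and 570 CPM (lowest, median, highest) in batch 2 and at 167, 214 and 261 CPM in batch 1. Cacna1g reached 16.4 CPM in library 18368 (male D1, Fosb guide). Cacng6 reached 1.18 CPM in library 19598 (female D1-D2 control), 0.876 CPM in library 19219 (male D1-D2 control) and 2.05 CPM in library 17907 (female D2, Fosb guide). Cacna2d4 was lowest in library 17457 (female D1 control) at 0.650 CPM and at 0 in library 18919 (male D1-D2, Fosb guide). Libraries 17907 and 18919 are among the 4 with over 90% of counts in 10 genes. Fosb reached 13.3 CPM in library 17907, against 6.40 for the next, and 11.9 CPM in library 17910 (female D2 control).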

How the results depend on the processing

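Counts of calls kept within 1.5 times of the reported ones in 982 of 1006 results and alternatives. A count of 0 in both was scored as kept. Most comparisons had 0 calls in the reported fit, so this share says little about the counts above 0. Without the batch term, channel genes called were 1 higher and 26 lower (D1 minus D2, male controls), 4 lower (male Fosb guide), 1 higher and 16 lower (mean), 2 higher and 3 lower (female minus male controls, mean), 7 higher (D1 arm), 1 higher and 15 lower (D2 arm) and 4 lower (D2 arm, Fosb guide). The same setting turned the sign of Cacna1h (-0.28) and Cacna1a (-0.39) between D1 and D2 arms in males with the Fosb guide, of Cacna1a in the mean (-0.25), and of Cacng2 (-0.11) and Cacnb2 (-0.22) between female and male controls; the batch is in male D2 libraries alone. limma-voom called 1 in the male D1 guide comparison, 1 lower between female and male controls, 8 with the Fosb guide in the D1 arm (DESeq2 2), 8 in the difference between the D1 and D1-D2 arms and 2 lower between batches; the cause was not tested. Female minus male calls in the D1 arm ranged from 8 to 16 with 1 library left out, and were 0 without 18068 and 18069. With only the compared groups fitted, 1 gene (Cacna1h) was higher in the D2 arm controls, and 2 were lower between batches, as without libraries 3631, 3632, 17906 and 19511. Leaving out 17376 and 19749, chosen after seeing the data, moved no call by more than this, nor did leaving out 18722 and 18749. Depth limits genes near 0, such as Scn4a, Scn10a and Cacna1f. No paired analysis was possible because the library numbers are unique and no groups share one.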
